A study of Mus musculus with 8 samples.

Results

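The genes described here are those of the cytosolic ribosomal proteins, the proteins that with the ribosomal RNAs make up the large and small ribosomal subunits. They were chosen by symbol: every gene with a probe whose symbol reads Rpl or Rps followed by a digit, together with Rpsa, Rplp0, Rplp1, Rplp2 and Fau, without kinases and pseudogenes. This gave 67 genes with 85 probes, of 16593 genes on the array. Each gene was represented by its brightest probe. The symbol rule also took in 2 genes that do not encode ribosomal proteins, Rps19bp1 and Rps23rg1, which leaves 65 ribosomal protein genes and paralogs. Among these 65, 32 were of the large subunit, 24 of the small subunit and 3 of the stalk, and 6 were paralogs of another ribosomal protein gene.

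The study measured total RNA of C57BL/6 mouse peritoneal macrophages on Illumina Mouse Ref-8 v2.0 bead arrays, with 1 array per sample. The 8 arrays fall into 4 groups of 2: cells labelled FcgKO (KO below) given interleukin-4 (IL-4) for 6 h, KO cells left unstimulated, wild-type (WT) cells given IL-4 for 6 h, and WT cells left unstimulated. All 4 groups came from naïve mice and were cultured overnight with L929-conditioned supernatant containing M-CSF, and floating cells were then discarded. Age and sex are not given in the sources used here, and the titles number the duplicates without tying them to animals. A p-value here thus reflects the spread between duplicates that may be technical copies. That spread was pooled over the 4 groups and moderated with that of the other tested genes. Fcer1g, the gene of the Fc receptor gamma chain, averaged 89.2 intensity units in KO cells with IL-4 and 86.6 in unstimulated KO cells, against 10040 in WT cells with IL-4 and 12990 in unstimulated WT cells, and was above background on none of the KO arrays and on all 4 WT arrays.

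Ribosomal protein mRNAs are among the most abundant mRNAs of most cells, because every new ribosome needs a copy of each protein (the stalk proteins P1 and P2 in several copies). In mammals these mRNAs begin with a run of pyrimidines, the 5′ terminal oligopyrimidine tract, through which mTOR signalling and Larp1 control how well they are translated, so mRNA level and protein output can part. IL-4 acts on macrophages mainly through STAT6 and drives their alternative activation, which goes with growth of the cell and in some settings with division.

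Intensities are the deposited normalized values on a linear scale. Background was judged against a threshold set from the low values of each array, between 93.2 and 93.3 intensity units. Of the 67 genes, 61 exceeded it in both duplicates of 1 or more groups and were tested, among 9840 genes in all, and 59 exceeded it on all 8 arrays. The tested genes comprised 30 of the large subunit, 23 of the small subunit, 2 of the stalk, 5 paralogs and Rps19bp1. The 6 untested genes were Rpl14, Rpl17, Rplp2, Rpl39l, Rps23 and Rps23rg1, whose intensities lay between 81.7 and 94.7 on all arrays. Rpl17 and Rps23rg1 exceeded the threshold on 1 of 8 arrays each, and the other 4 on none. Rpl14, Rpl17, Rplp2 and Rps23 encode proteins that every ribosome carries, and a probe at this level gives only a bound.

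The macrophage markers measured here, Adgre1, Itgam, Lyz2, Mertk, Icam2 and Gata6, were above background on all 8 arrays, as were the B cell gene Cd79b, the T cell genes Cd3e and Cd3d and the neutrophil gene S100a8. Cd4, Cd8a, S100a9, Siglecf, Flt3, Xcr1, Col3a1, Krt19, Msln and Alas2 were below background on every array. In bulk RNA of this kind, fewer cells of a type and less RNA per cell cannot be told apart.

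The tested ribosomal protein probes were bright. Their mean intensity over the 8 arrays ranged from 90.6 to 17715, with a median of 6012, against a median of 149 over all tested genes. Of the 61, 37 lay over 5000 and 7 under 200. Between 12 and 14 of the 50 brightest probes on each array belonged to these genes, and the brightest probe was that of Rplp1 on 3 arrays and that of Lyz2, the macrophage lysozyme gene, on 5.

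Rplp1 encodes the acidic stalk protein P1, which helps to recruit the translational GTPases. Its probe read 17139 and 17139 in KO cells with IL-4 and 17696 and 18303 in unstimulated KO cells, and it read 17696 and 18303 in WT cells with IL-4 and 17139 and 18303 in unstimulated WT cells. Rpl41, the gene of a very short large-subunit protein, read 16131 and 16491 in KO cells with IL-4, 16131 and 15947 in unstimulated KO cells, 16825 and 16131 in WT cells with IL-4, and 16131 on both unstimulated WT arrays. The repeated values are those of shared ranks: the 8 columns hold nearly the same set of sorted values, so a probe at the top of the scale moves only between a few fixed values, the highest of which was 18303 and the 50th of which was 9711. Rps12 and Rps2, the next brightest, both of the small subunit, had opposite signs in the 2 genotypes. Rps12 read 16491 and 15947 in KO cells with IL-4, against 15088 and 14735 in unstimulated KO cells (0.12), and 14735 and 13661 in WT cells with IL-4, against 15335 and 15088 in unstimulated WT cells (-0.10). Rps2 read 14267 on both arrays of KO cells with IL-4, against 13761 and 15088 in unstimulated KO cells (-0.01), and 15947 and 15335 in WT cells with IL-4, against 14267 and 13507 in unstimulated WT cells (0.17). None of these 4 changes passed (adjusted p of 0.161 to 0.929, limma).

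The 12 genes with a mean over 10000 changed by at most 0.13 (log2) with IL-4 in KO cells and 0.17 in WT cells, and how far the top of the scale limits them was not tested.

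The dimmest tested genes were Rpl3l, Rpl6 and Rpsa. Rpl3l encodes a paralog of Rpl3 known from striated muscle. Its probe was above background on 3 of 8 arrays and read 87.8 and 84.9 in KO cells with IL-4, 87.0 and 93.8 in unstimulated KO cells, 89.8 and 88.3 in WT cells with IL-4, and 96.9 and 96.6 in unstimulated WT cells. Rpl6 was above background on 7 of 8 arrays, and Rpsa, the gene of a small-subunit protein also known as the laminin receptor precursor, averaged 98.3 over the 8 arrays. Probe intensity depends on the probe as well as on the mRNA, so the order of these genes by brightness is not an order of expression.

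**Figure D1:**
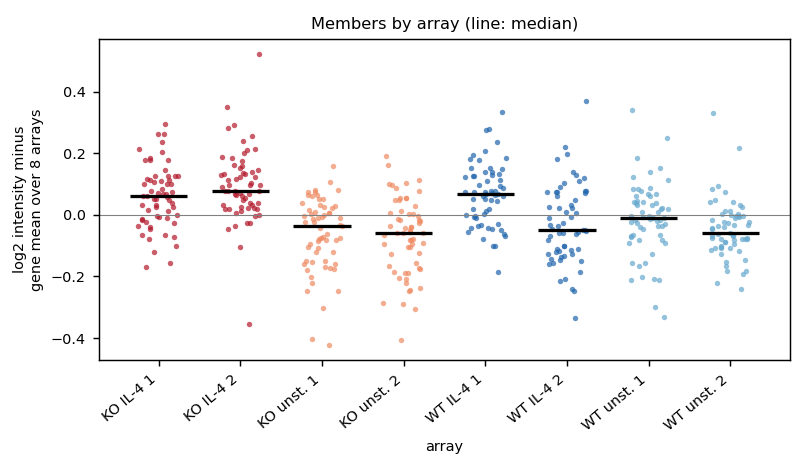
Each point is 1 of the 61 tested genes on 1 array, plotted as log2 intensity after background correction minus that gene's mean over the 8 arrays (y axis), with the arrays along the x axis and the black line at the median. The medians of both arrays of KO cells with IL-4 lie above 0, as does that of WT cells with IL-4 replicate 1, and the medians of the other 5 arrays lie below 0.

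Set against each gene's own mean over the 8 arrays, the 61 genes had a median of 0.06 and 0.08 (log2) on the arrays of KO cells with IL-4, and of -0.04 and -0.06 on the unstimulated KO arrays. The medians were 0.07 and -0.05 on the arrays of WT cells with IL-4, and -0.01 and -0.06 on the unstimulated WT arrays. The 2 arrays of WT cells with IL-4 stood apart from each other: 52 of 61 genes (85.2%) were higher on replicate 1 than on replicate 2, by a median of 0.10, where 51.4% of all tested genes were. In the other groups replicate 1 was the higher one for 28 genes in KO cells with IL-4, 32 in unstimulated KO cells and 38 in unstimulated WT cells. The medians and counts above 0 that rest on the arrays of WT cells with IL-4 are given below with and without each of them. Counts of groups that did not overlap and of unadjusted p-values are given only with all 8 arrays.

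The first comparison asked which ribosomal protein genes changed in KO cells given IL-4, against unstimulated KO cells. Of the 61 genes, 10 rose and 0 fell at an adjusted p under 0.05 (16.4%), where 9.40% of all 9840 genes rose, 9.88% fell and 19.3% did either (limma with Benjamini-Hochberg adjustment). The changes were small, up to 1.45-fold. At an unadjusted p under 0.05 the share was 29.5%, against 30.6% of all genes. What differed from the whole table was the sign: 52 of 61 genes (85.2%) had a change above 0, against 48.1% of all genes, and the median change was 0.12 (log2), against -0.01 over all genes. Both arrays with IL-4 lay above both unstimulated arrays for 33 genes (54.1%; 28.0% of all genes) and below them for 1 gene, Rplp1 (30.4% of all genes). By role, 4 of 30 large-subunit genes, 2 of 23 small-subunit genes, 1 of 2 stalk genes, 2 of 5 paralogs and Rps19bp1 rose.

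**Figure D2:**
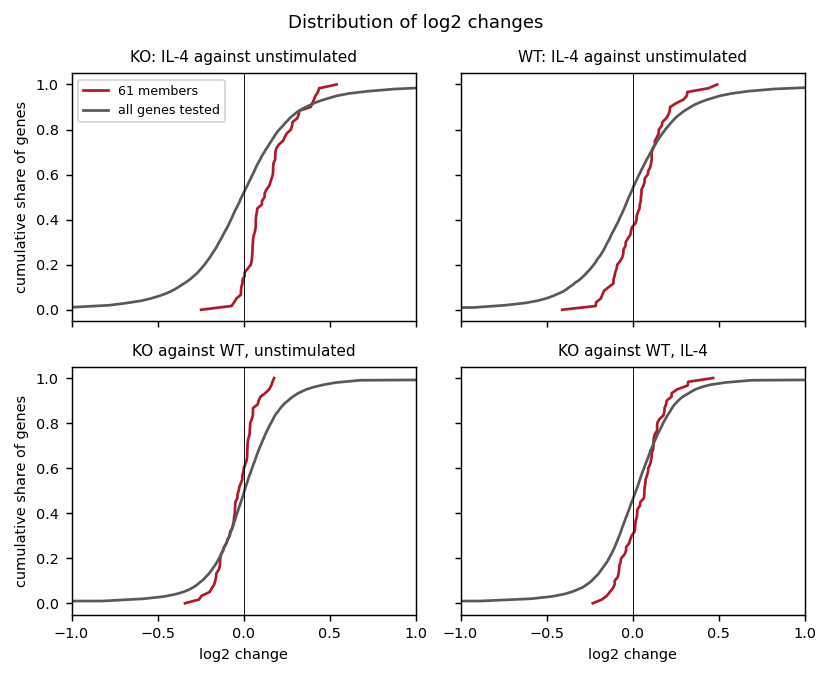
Cumulative share of genes (y axis, 0 to 1) with a log2 change at or below the value on the x axis, for the 61 tested genes (red) and all 9840 tested genes (grey) in 4 comparisons. For IL-4 in KO cells the red curve lies to the right of the grey one over most of its length, with a median of 0.12 against -0.01, and it covers a narrower range than the curve of all genes. Its lowest point, Rpl3l, rests on values at background.

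Among large-subunit genes, Rpl4 encodes a protein whose long extension reaches the wall of the exit tunnel. Its probe read 750 and 737 intensity units in KO cells with IL-4, against 544 and 589 in unstimulated KO cells. Both IL-4 arrays were above both unstimulated ones, and the change of 0.44 ± 0.10 (log2, SE; adjusted p = 0.00801, limma) corresponds to 1.36-fold.

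Rpl13a, whose protein in human monocytes is known to leave the ribosome and take part in a translational silencing complex, read 889 and 838 in KO cells with IL-4, against 695 and 640 in unstimulated KO cells. The 2 groups did not overlap, and the change was 0.41 ± 0.10 (SE; adjusted p = 0.0082, limma). Rpl27, a constituent of the large subunit, read 8967 and 10750 in KO cells with IL-4, against 8124 and 7733 in unstimulated KO cells. It was up by 0.31 ± 0.10 (SE; adjusted p = 0.0425, limma), and the IL-4 duplicates were farther apart than the unstimulated ones.

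Rpl22, which encodes a large-subunit protein that is dispensable for most translation and is best known for its part in lymphocyte development, read 362 and 425 in KO cells with IL-4, against 279 and 340 in unstimulated KO cells. These duplicates spread more than those of Rpl4: the lower IL-4 array stood only slightly above the higher unstimulated array, and the change was 0.43 ± 0.14 (SE; adjusted p = 0.0432, limma).

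Rpl22l1, its paralog, had the largest change of the 61 genes and is a dim probe. It read 107 and 118 in KO cells with IL-4, against 97.9 and 97.0 in unstimulated KO cells. The change was 0.54 ± 0.14 (SE; adjusted p = 0.0124, limma) after background correction and 0.20 on the deposited intensities without it, where the adjusted p was 0.0112. The size of the change is thus set by the background correction, since all these values lie close to the background threshold.

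The other paralogs moved less. Rpl36al, a nearly identical copy of Rpl36a whose mRNAs a probe may not tell apart, read 7956 and 8006 in KO cells with IL-4, against 6979 and 6202 in unstimulated KO cells, and rose by 0.28 ± 0.09 (log2, SE; adjusted p = 0.0357, limma). Rpl36a itself changed by 0.15, which did not pass. Rps27l, a paralog of Rps27 that is a p53 target in human cells, had a change of 0.25 (adjusted p = 0.0646, limma) and Rps27 one of 0.17. Rpl7l1 had 0.07, Rpl39 had 0.07, Rpl3 had 0.05 and Fau, whose product is cleaved to a ubiquitin-like protein and the small-subunit protein eS30, had -0.06.

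In the small subunit, Rps6 and Rps13 rose, and both are named because they complete the 10. Rps6 encodes the protein that S6 kinases phosphorylate downstream of mTOR. Its probe read 7358 and 7956 in KO cells with IL-4, against 5984 and 5735 in unstimulated KO cells, and the change was 0.39 ± 0.09 (SE; adjusted p = 0.00594, limma), the lowest adjusted p of the 61 genes. Rps13 read 6769 and 6936 in KO cells with IL-4, against 5908 and 5127 in unstimulated KO cells, with a change of 0.32 ± 0.10 (SE; adjusted p = 0.0369, limma). Neither pair of groups overlapped.

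At the stalk, Rplp0 encodes P0, the protein that anchors the P1 and P2 dimers and is often used as a reference gene in quantitative PCR. It read 283 and 265 in KO cells with IL-4, against 218 and 225 in unstimulated KO cells, and rose by 0.42 ± 0.11 (SE; adjusted p = 0.0165, limma). Its partner gene Rplp1 had a change of -0.07 at the top of the scale. Rps19bp1, which encodes a nucleolar protein that binds Rps19 and regulates SIRT1 and is no part of the ribosome, read 203 and 203 in KO cells with IL-4, against 179 and 161 in unstimulated KO cells, and rose by 0.40 ± 0.13 (SE; adjusted p = 0.0427, limma).

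**Figure D3:**
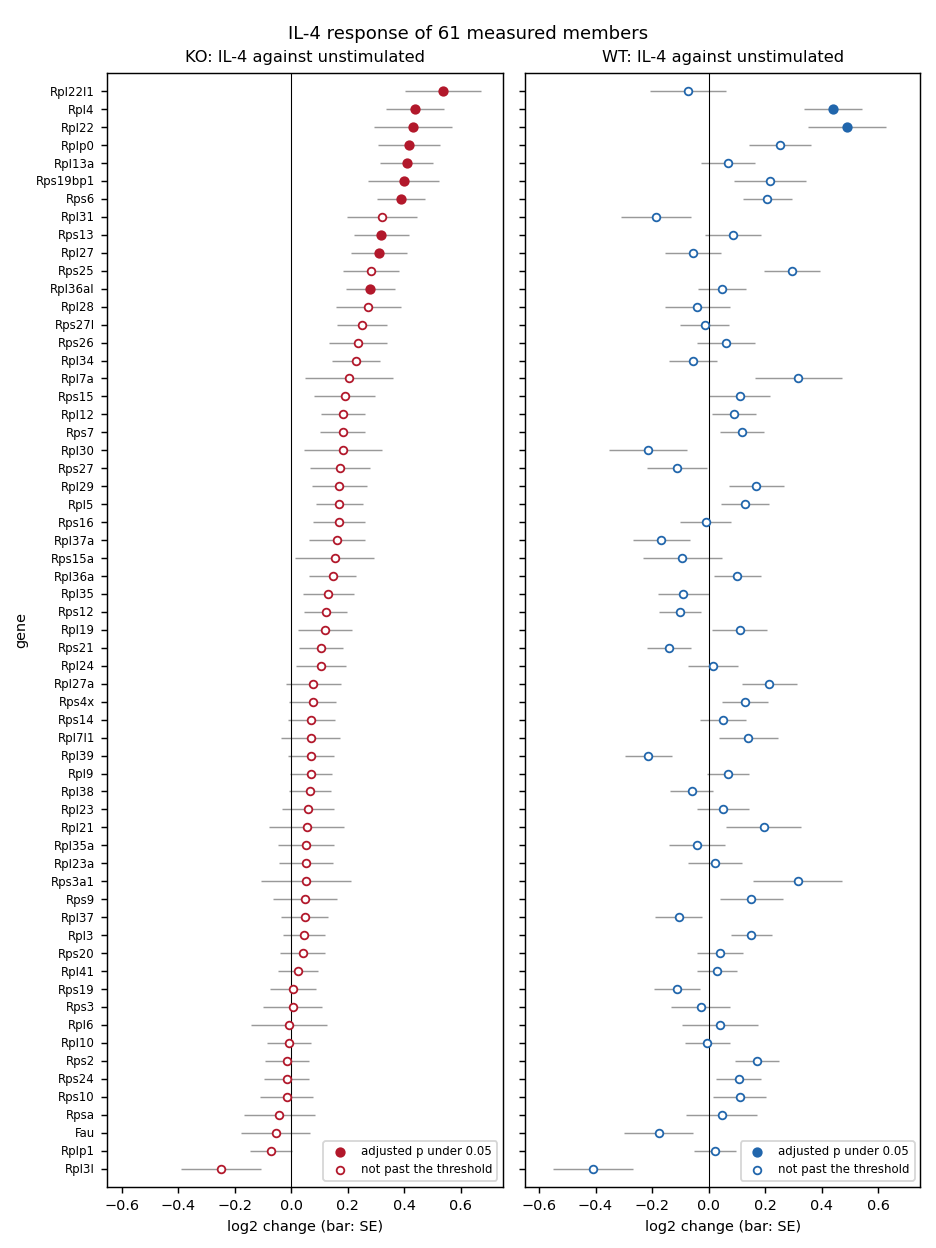
Log2 change with IL-4 (x axis; bars show the SE of the fit) for each of the 61 tested genes (y axis, in order of the change in KO cells), in KO cells on the left and in WT cells on the right; filled points have an adjusted p under 0.05. Of the points, 10 are filled in KO cells and 2 in WT cells, and 52 lie above 0 in KO cells, against 38 in WT cells. The points of Rpl3l rest on values at background.

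The 10 genes that rose had mean intensities of 102 to 9056. Beside them, the summed intensity of 6 macrophage markers was 24390 to 24790 on the arrays of KO cells with IL-4, against 23610 to 23950 on the unstimulated KO arrays. Most of this sum was Lyz2, which averaged 18300 and 18000 in these groups, at the top of the scale where a probe can hardly move. The summed intensity of 9 B cell markers was 3067 to 3359 in KO cells with IL-4, against 3853 to 3940 in unstimulated KO cells, and 1 of 8 tested rose and 2 fell. The B cell markers did not move together, and the median change of the 8 was 0.17. Fcmr averaged 440.6 in KO cells with IL-4, against 1339 in unstimulated KO cells, while Cd79b averaged 1579 against 1288. The sum of 9 T and NK cell markers was 1115 to 1162 in KO cells with IL-4, against 1141 to 1217 in unstimulated KO cells, and 0 of 6 tested changed, by limma. That of 7 neutrophil markers was 1368 to 1599 in KO cells with IL-4, against 1861 to 1977 in unstimulated KO cells, and 1 of 4 tested, S100a8, fell, while S100a9 was below background on every array. Of the macrophage markers Gata6 rose, as did Batf3, 1 of 2 tested dendritic cell markers, and 0 of 5 mast cell and eosinophil, 0 of 2 fibroblast and mesothelial and 0 of 1 erythroid markers changed. The part of these cell types in the result was not tested.

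Each of the 10 calls ended when at least 1 array was left out, and the change stayed above 0 each time. Without KO with IL-4 replicate 1, 4 of 61 genes passed, and Rpl4 (0.42), Rpl13a (0.36), Rplp0 (0.35), Rps13 (0.34), Rpl36al (0.29) and Rps19bp1 (0.40) did not. Without KO with IL-4 replicate 2, 4 passed, and Rpl22 (0.29), Rpl22l1 (0.37), Rps6 (0.33), Rps13 (0.30), Rpl36al (0.28), Rpl27 (0.18) and Rps19bp1 (0.40) did not. Without unstimulated KO replicate 1, 6 passed, and Rpl22 (0.25), Rpl22l1 (0.56), Rplp0 (0.39), Rpl4 (0.37) and Rpl27 (0.35) did not. Without unstimulated KO replicate 2, 4 passed, and Rpl22l1 (0.52), Rpl13a (0.34), Rplp0 (0.45), Rps13 (0.22), Rpl36al (0.20), Rpl27 (0.28) and Rps19bp1 (0.27) did not. Adjusted p-values of the lost calls lay between 0.0511 and 0.364 (limma). The WT arrays enter only through the shared spread: without any 1 of them the changes were the same, and Rpl22 or Rpl27 had adjusted p-values between 0.0501 and 0.0551.

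The same question in WT cells gave fewer calls. With IL-4, 2 of 61 genes rose and 0 fell, against unstimulated WT cells (3.28%), where 7.83% of all genes rose, 8.63% fell and 16.5% did either. At an unadjusted p under 0.05 the share was 14.8%, against 28.6% of all genes. The median change was 0.05 (log2), against -0.02 over all genes, and 38 of 61 genes (62.3%; 46.1% of all genes) had a change above 0. Both IL-4 arrays lay above both unstimulated arrays for 22 genes (36.1%; 25.7% of all genes) and below them for 8 (13.1%; 29.5% of all genes). These counts include Rpl3l, which in WT cells was above background only unstimulated. Of the 59 genes above background on all 8 arrays, 8 had an unadjusted p under 0.05 (13.6%, limma) and 7 lay below without overlap (11.9%). Without WT with IL-4 replicate 1 the median change was 0.01, 32 genes were above 0 and 0 passed. Without WT with IL-4 replicate 2 it was 0.09, 45 were above 0 and 1 passed. Without unstimulated WT replicate 1 the median was 0.07 and 0 passed, and without unstimulated WT replicate 2 it was 0.03.

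The 2 genes were Rpl4 and Rpl22, both of the large subunit and both among the 10 of KO cells. Rpl4 read 810 and 716 in WT cells with IL-4, against 575 and 582 in unstimulated WT cells, a change of 0.44 ± 0.10 (SE; adjusted p = 0.00891, limma). Rpl22 read 408 and 394 in WT cells with IL-4, against 289 and 320 in unstimulated WT cells, a change of 0.49 ± 0.14 (SE; adjusted p = 0.0261, limma). For both genes the 4 arrays with IL-4 lay above the 4 unstimulated arrays of the 2 genotypes. Without WT with IL-4 replicate 1 neither passed (Rpl4 0.34, adjusted p = 0.0975; Rpl22 0.46, adjusted p = 0.122; limma). Without unstimulated WT replicate 1 neither passed either (Rpl4 0.43, adjusted p = 0.0515; Rpl22 0.40, adjusted p = 0.179; limma), and without WT with IL-4 replicate 2 Rpl22 did not (0.52, adjusted p = 0.0862; limma).

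Of the 10 genes that rose in KO cells, 8 had a change above 0 in WT cells. Rplp0 read 267 and 263 in WT cells with IL-4, against 227 and 238 in unstimulated WT cells (0.25, adjusted p = 0.148, limma). Rps6 read 7358 and 7248 in WT cells with IL-4, against 6738 and 5952 in unstimulated WT cells (0.21, adjusted p = 0.127, limma). Both genes thus had groups that did not overlap in WT cells as well, without passing the threshold. Rpl13a read 800 and 777 in WT cells with IL-4, against 763 and 747 in unstimulated WT cells (0.07), and Rps19bp1 read 219 and 202 in WT cells with IL-4, against 184 and 196 in unstimulated WT cells (0.22). Neither overlapped. In Rps13 and Rpl36al, with changes of 0.09 and 0.05, the WT groups overlapped.

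Rpl22l1 and Rpl27 were the 2 with a change below 0 in WT cells. Rpl22l1 read 99.5 and 98.7 in WT cells with IL-4, against 100.3 and 101.3 in unstimulated WT cells (-0.07), and the groups did not overlap. Rpl27 read 9578 and 8523 in WT cells with IL-4, against 9810 and 8967 in unstimulated WT cells (-0.05), and its groups overlapped. Rpl3l, the muscle paralog, was below background on both arrays of WT cells with IL-4 and above it on both unstimulated WT arrays, so neither a fold nor a test is given for it.

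Rps25, which encodes a small-subunit protein needed for initiation at some viral internal ribosome entry sites, was picked out after its values were seen, because it lay just outside the threshold in both genotypes. It read 3355 and 2820 in KO cells with IL-4, against 2609 and 2470 in unstimulated KO cells (0.28, adjusted p = 0.0632, limma). In WT cells it read 3028 and 3210 with IL-4, against 2448 and 2661 unstimulated (0.29, adjusted p = 0.0593, limma). Neither genotype's groups overlapped.

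In the same comparison, 2 of 8 tested B cell markers and 2 of 6 tested T and NK cell markers fell with IL-4. The median change of the 8 B cell markers was 0.07. Fcmr averaged 578.8 in WT cells with IL-4, against 1204 in unstimulated WT cells, while Cd79b averaged 1411 against 1127. The summed B cell markers were 2471 to 3692 on the arrays of WT cells with IL-4, against 3038 to 3993 on the unstimulated WT arrays, and the summed T and NK cell markers were 928 to 998 in WT cells with IL-4, against 1016 to 1131 in unstimulated WT cells. Of 4 tested neutrophil markers 3 passed as lower by limma, and of these only S100a8 (-1.08) lay well above background. In WT cells Retnlg averaged 97.4 with IL-4 and 117.1 unstimulated, and Camp 91.8 and 101.2, so no fold is given for them. The summed neutrophil markers were 1486 to 1631 in WT cells with IL-4, against 2497 to 2782 in unstimulated WT cells, without overlap. Gata6 and Batf3 rose, and 1 of 5 tested mast cell and eosinophil markers did. The summed macrophage markers were 21750 to 22940 in WT cells with IL-4, against 21990 to 22380 in unstimulated WT cells. Most of that sum was again Lyz2, with means of 17560 and 18000. The part of these cell types in the WT values was not tested.

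**Figure D4:**
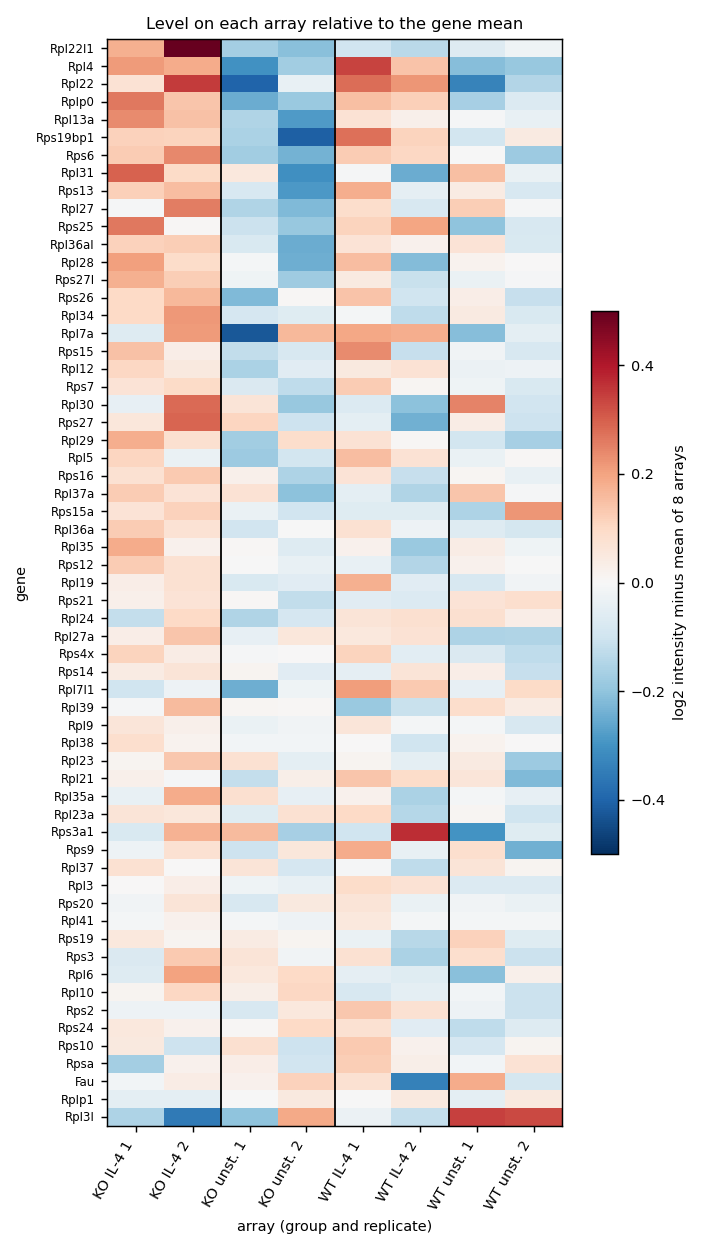
Level of each of the 61 tested genes (rows, in order of the change with IL-4 in KO cells) on each of the 8 arrays (columns, by group), coloured by log2 intensity minus the gene's mean over the 8 arrays. Red is above and blue below that mean: most of the upper rows are red on both arrays of KO cells with IL-4 and blue on both unstimulated KO arrays, and the 2 arrays of WT cells with IL-4 differ in many rows.

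The difference between the responses was tested directly, as the IL-4 change in KO cells minus that in WT cells. No gene of the 61 passed (0 of 61; 0.0407% of all genes passed upwards, 0.0813% downwards and 0.122% in either direction, limma), and 8 had an unadjusted p under 0.05 (13.1%; 6.54% of all genes). The difference was above 0 for 42 genes (68.9%; 51.6% of all genes), with a median of 0.08, against 0.01 over all genes, and with a range of -0.26 to 0.61 and a median SE of 0.14. These values depended on single arrays: without WT with IL-4 replicate 2 the median was 0.01 and 34 genes were above 0, near all genes, and without WT with IL-4 replicate 1 it was 0.15 and 45 were. Without unstimulated WT replicate 1 it was 0.05. The 3 largest were Rpl22l1 with 0.61 ± 0.19 (SE; adjusted p = 0.559), Rpl31 with 0.51 ± 0.17 (SE; adjusted p = 0.633) and Rpl30 with 0.40, by limma. The 10 calls in KO cells and 2 in WT cells are therefore not shown to differ between the genotypes.

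Rpl31 encodes a large-subunit protein at the rim of the exit tunnel, where nascent-chain factors dock. It read 8006 and 6979 in KO cells with IL-4, against 6769 and 5303 in unstimulated KO cells, and 6512 and 5514 in WT cells with IL-4, against 7248 and 6384 in unstimulated WT cells. The KO arrays with IL-4 lay above the unstimulated KO arrays, whereas the WT groups overlapped. This probe had 0.323 with IL-4 in KO cells and -0.185 in WT cells. A dimmer Rpl31 probe, with a mean of 741.7, had 0.369 in KO cells and 0.025 in WT cells. Its difference between the responses was 0.345 (adjusted p = 0.805, limma), so it did not show the lower value in WT cells. Rpl30, which also binds its own transcript in yeast, read 842 and 1036 in KO cells with IL-4, against 900 and 766 in unstimulated KO cells, and 827 and 757 in WT cells with IL-4, against 1013 and 813 in unstimulated WT cells. Its duplicates overlapped in both genotypes.

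Between the genotypes no ribosomal protein gene passed. In unstimulated cells, KO against WT, 0 of 61 genes were higher and 0 lower (2.62% of all genes were higher, 2.63% lower and 5.25% either, limma), and 2 had an unadjusted p under 0.05 (3.28%; 16.2% of all genes). The median difference was -0.03, against 0.00 over all genes, and 25 of 61 genes (41.0%; 51.1% of all genes) had a difference above 0. Both KO arrays lay above both WT arrays for 6 genes (9.84%; 23.6% of all genes) and below them for 18 (29.5%; 21.2% of all genes). Of the 59 genes above background on all 8 arrays, 1 had an unadjusted p under 0.05 (1.69%, limma). In 5 of the 59 both KO arrays lay above both WT arrays (8.47%), and in 17 below (28.8%). Leaving aside Rpl3l, which entered the test only through the unstimulated WT arrays, the largest were Rps19bp1 with -0.26 and Rpl27 with -0.25 ± 0.10 (SE; adjusted p = 0.229, limma). Rps19bp1 read 179 and 161 in unstimulated KO cells, against 184 and 196 in unstimulated WT cells. Centring each array on 4 reference genes moved the median of the 61 genes to -0.14 and that of all genes to -0.10, with 5 of 61 above 0, and leaving out unstimulated WT replicate 2 moved that of the 61 genes to -0.06. Of the markers, 2 of 6 macrophage genes were higher in unstimulated KO cells than in unstimulated WT cells (Adgre1, 0.60, and Gata6, 0.74). Of 4 neutrophil genes 2 passed as lower, S100a8 (-0.60) and Retnlg. Retnlg averaged 89.6 in unstimulated KO cells, below background, and entered the test only through WT arrays, so no fold is given for it. The summed neutrophil markers were 1861 to 1977 in unstimulated KO cells, against 2497 to 2782 in unstimulated WT cells. Their part in the ribosomal protein values was not tested.

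With IL-4, KO against WT, again 0 of 61 genes were higher and 0 lower (2.44% of all genes were higher, 2.66% lower and 5.10% either, limma), and 7 had an unadjusted p under 0.05 (11.5%; 16.7% of all genes). The median difference was 0.07, against 0.02 over all genes, and 42 of 61 genes (68.9%; 54.0% of all genes) had a difference above 0. Both KO arrays lay above both WT arrays for 22 genes (36.1%; 26.9% of all genes) and below them for 7 (11.5%; 20.9% of all genes). Of the 59 genes above background on all 8 arrays, 22 lay above (37.3%) and 6 below (10.2%). Without WT with IL-4 replicate 2 the median was 0.02, the same as over all genes at that rounding, and 32 genes were above 0. Without WT with IL-4 replicate 1 it was 0.12 and 46 were above 0, and without KO with IL-4 replicate 2 it was 0.04 and 38 were. Rpl22l1 had 0.47 ± 0.14 (SE; adjusted p = 0.0687, limma), and without KO with IL-4 replicate 1 it had 0.64 and passed (adjusted p = 0.0303, limma). Rpl31 had 0.32 ± 0.12 (SE; adjusted p = 0.192, limma). Rps27, whose zinc-finger protein sits in the small subunit, read 7076 and 8312 in KO cells with IL-4, against 6583 and 5764 in WT cells with IL-4, a difference of 0.32 ± 0.11 (SE; adjusted p = 0.123, limma), and the groups did not overlap. Centring each array on 4 reference genes moved the median of all genes to -0.11 in this comparison and that of the 61 genes to -0.06, so the sign of the members' median depends on the scaling, while they stayed above the median of all genes. In the same comparison 3 of 6 tested T and NK cell markers were higher in KO cells: Cd3d averaged 200.5 in KO cells with IL-4 and 124.5 in WT cells with IL-4. Adgre1 (0.59) and Gata6 (0.46) were higher too, 2 of 6 macrophage markers. Retnlg, 1 of 4 neutrophil markers, passed as lower. It averaged 84.7 in KO cells with IL-4, below background, and entered the test only through WT arrays. The part of these cell types in the ribosomal protein values was not tested. These 2 genotype comparisons and the IL-4 comparisons use the same 8 arrays, so they are not independent of each other.

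Several genes had more than 1 probe, and these did not always move together. Fitted one by one and adjusted over 14402 probes, 12 further probes of 11 genes were tested, of 18 further probes of 15 genes. Past the threshold were 2 of the 12 with IL-4 in KO cells (16.7%; 17.6% of all probes) and 3 in WT cells (25%; 15.2% of all probes). Between the genotypes 0 passed by limma, unstimulated (4.66% of all probes) or with IL-4 (4.55% of all probes), and 2 and 1 of the 12 had an unadjusted p under 0.05. With 12 probes these counts are no result about the set, and the probes below are shown for how they differ from another probe of the same gene. The 4 genes concerned were picked out after their values were seen, and in none of them did the brightest probe pass.

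For Rps24, the gene of a small-subunit protein mutated in human Diamond-Blackfan anaemia, the dimmer probe read 220.1 and 220.7 in KO cells with IL-4, against 164.5 and 160.0 in unstimulated KO cells (0.68, adjusted p = 0.00093, limma). In WT cells it read 195 and 204 with IL-4, against 167 and 164 unstimulated (0.42, adjusted p = 0.0228, limma). Its brightest probe, with a mean of 10390, had -0.02 in KO cells and 0.11 in WT cells. Rps24 is known to be spliced differently at its 3′ end, and which transcripts each probe reads was not looked up.

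For Rpl29, a large-subunit gene, the dimmer probe read 1618 and 1555 in KO cells with IL-4, against 986 and 1084 in unstimulated KO cells (0.65, adjusted p = 0.000858, limma), and 1479 and 1235 in WT cells with IL-4, against 1140 and 1055 in unstimulated WT cells (0.32, adjusted p = 0.0658, limma). Its brightest probe had 0.17 in both genotypes. In Rpl23 a dimmer probe, with a mean of 554, rose by 0.35 in WT cells with IL-4 (adjusted p = 0.039, limma), where the brightest had 0.05. Another Rpl23 probe, with a mean of 6567, had -0.09 there. In KO cells with IL-4 these probes had 0.16, 0.06 and -0.23, in the same order, and none passed. In Rpl38 the dimmer probe fell in WT cells with IL-4, to 546 and 541, against 715 and 691 in unstimulated WT cells (-0.41, adjusted p = 0.0137, limma). The brightest Rpl38 probe had -0.06, the same sign at a smaller size.

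**Figure D5:**
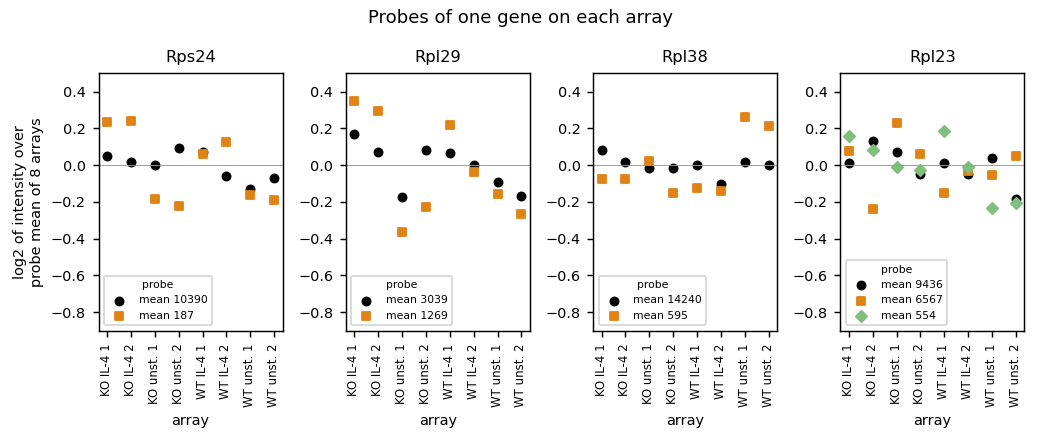
Probes of Rps24, Rpl29, Rpl38 and Rpl23 on each of the 8 arrays (x axis, by group), as log2 of the deposited intensity over the probe's mean (y axis); each colour and shape is 1 probe, named by its mean intensity. The dimmer Rps24 and Rpl29 probes lie higher on the arrays with IL-4 of KO cells than on the unstimulated KO arrays, and the dimmer Rpl38 probe lies highest on the unstimulated WT arrays.

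Promoter sequences were read from RefSeq for assembly GRCm38.p6, which held 58 of the 67 genes. The set below compares 5 of the 10 genes that rose in KO cells with IL-4 (Rpl22l1, Rpl4, Rpl22, Rplp0 and Rps6) with the 3 brightest genes that have an entry and may be printed here (Rpl41, Rps12 and Rps2). These 5 are not the 5 with the largest changes. The set shows how the pyrimidine runs lie around the start. Each covers 60 bases before and 20 after the annotated start on the gene's strand, and capitals mark runs of at least 6 C or T. They lie at chr3:28805448-28805527 (+, Rpl22l1), chr9:64173327-64173406 (+, Rpl4), chr4:152325666-152325745 (+, Rpl22, the first of 2 promoters listed), chr5:115559407-115559486 (+, Rplp0), chr4:86857348-86857427 (-, Rps6), chr10:128549149-128549228 (-, Rpl41), chr10:23787190-23787269 (-, Rps12) and chr17:24720003-24720082 (+, Rps2).
Rpl22l1: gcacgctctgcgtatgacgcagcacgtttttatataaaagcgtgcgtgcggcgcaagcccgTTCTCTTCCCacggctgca
Rpl4: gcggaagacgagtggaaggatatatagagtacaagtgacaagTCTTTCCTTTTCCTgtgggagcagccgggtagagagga
Rpl22: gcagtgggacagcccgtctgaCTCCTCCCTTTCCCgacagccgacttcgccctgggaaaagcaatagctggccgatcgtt
Rplp0: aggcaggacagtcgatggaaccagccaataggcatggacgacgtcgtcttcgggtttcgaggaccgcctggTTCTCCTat
Rps6: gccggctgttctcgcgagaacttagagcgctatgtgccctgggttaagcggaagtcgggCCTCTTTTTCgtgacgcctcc
Rpl41: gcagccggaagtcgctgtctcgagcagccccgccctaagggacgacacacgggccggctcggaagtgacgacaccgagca
Rps12: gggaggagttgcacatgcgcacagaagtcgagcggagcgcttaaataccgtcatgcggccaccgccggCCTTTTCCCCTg
Rps2: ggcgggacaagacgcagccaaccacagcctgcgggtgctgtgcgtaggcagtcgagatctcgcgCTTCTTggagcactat
A run of at least 8 C or T, on the gene strand and within 15 bases before to 20 after the annotated start, was found in 26 of 58 promoters (44.8%), against 17.1% of those of all tested genes and 15.7% of all 27025 genes in the table. The letters CCGGAAG, the core that ETS factors bind, were present on either strand of the promoter from 250 bases before to 50 after the start in 22 of 58 (37.9%), against 19.0% and 9.93%. AAGATGGC, a form of the YY1 motif, was present in 7 of 58 (12.1%), against 5.08% and 3.19%. A stretch that holds CCGGAAG can also hold AAGATGGC, since the first ends and the second starts with AAG. CCAAT was present in 19 of 58 (32.8%), against 43.6% and 41.1%, and TATAAA in 6 of 58 (10.3%), against 10.3% and 15.7%, both on either strand. Among the 10 genes that rose in KO cells, 4 had such a pyrimidine run, 1 had CCGGAAG, 2 had AAGATGGC, 3 had CCAAT and 3 had TATAAA. Of the runs printed above, that of Rpl22 lies more than 15 bases before the start and that of Rplp0 has 7 bases. Neither printed run meets the rule of at least 8 within the window. All these counts are matches of letters around annotated starts, which can differ from the starts used in macrophages.

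Other genes of translation were described from lists, whose counts are to be read against all genes, of which 9.40% rose and 9.88% fell in KO cells with IL-4, and 7.83% rose and 8.63% fell in WT cells with IL-4. Among 13 tested genes of elongation and of mRNAs with a similar 5′ tract, 2 rose and 1 fell in KO cells with IL-4 and 7 rose and 1 fell in WT cells with IL-4, each against unstimulated cells. Their median changes were 0.23 in KO cells and 0.28 in WT cells, above those of the ribosomal protein genes. Npm1, which encodes a nucleolar chaperone of ribosome assembly, rose by 0.59 in KO cells (adjusted p = 0.00048) and by 0.68 in WT cells (adjusted p = 0.00021), by limma. Eef1g, a subunit of the elongation factor that recharges eEF1A, rose by 0.27 in KO cells and by 0.28 in WT cells. Eef2, the translocase of elongation, averaged 1116 in KO cells with IL-4 and 1192 in unstimulated KO cells, and 1446 in WT cells with IL-4 and 991 in unstimulated WT cells, with changes of -0.09 in KO cells (adjusted p = 0.68) and 0.58 in WT cells (adjusted p = 0.00526). The difference between those responses did not pass (-0.68 ± 0.18 SE, adjusted p = 0.323, limma). The gene that fell was Vim, which encodes the intermediate filament vimentin, by 0.76 in KO cells and by 0.74 in WT cells.

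Of 23 tested initiation factor genes, 5 rose and 0 fell in KO cells with IL-4, and 6 rose and 0 fell in WT cells with IL-4. Eif5a, whose protein relieves stalled ribosomes and carries hypusine, rose by 0.54 in KO cells and by 0.68 in WT cells, and Eif3b, a scaffold subunit of eIF3, by 0.52 in KO cells and 0.47 in WT cells. Between the genotypes Eif6, whose protein keeps the large subunit from joining the small one too early, was lower in KO cells than in WT cells both with IL-4 (1919 against 2423, adjusted p = 0.0377) and unstimulated (1704 against 2119, adjusted p = 0.0499), by limma. Eif5a was also lower in KO cells with IL-4 than in WT cells with IL-4 (3055 against 3837, adjusted p = 0.0484, limma). In KO against WT with IL-4, 0 of 23 were higher and 2 lower (2.44% and 2.66% of all genes, limma). Unstimulated, 0 were higher and 1 lower (2.62% and 2.63% of all genes, limma). The adjusted p-values of these genotype differences lie near the threshold, and how far they depend on single arrays is not given here.

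Of 19 tested genes for chaperones, importers and assembly factors of ribosomal proteins, 6 rose and 0 fell in KO cells with IL-4, and 7 rose and 0 fell in WT cells with IL-4. Hgh1, which in yeast helps eEF2 to fold, rose by 0.88 in KO cells and by 0.77 in WT cells, and Grwd1, whose yeast counterpart is a chaperone of Rpl3, by 0.84 in KO cells and 0.73 in WT cells. Ipo4, a nuclear importer, rose by 0.68 in KO cells and 0.55 in WT cells, and Nob1, the nuclease that finishes 18S ribosomal RNA, by 0.52 in KO cells and 0.46 in WT cells. The largest changes of this list exceeded the largest of the ribosomal protein genes, 0.54. That value is of Rpl22l1 in KO cells, a dim probe whose size is set by the background correction. Most ribosomal protein probes are far brighter than those of this list, and sizes depend on brightness through that correction, so they are not strictly comparable.

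Of 21 tested regulators of ribosomal protein synthesis, 1 rose and 4 fell in KO cells with IL-4, and 1 rose and 2 fell in WT cells with IL-4. Myc, the transcription factor that drives ribosome production, rose by 0.75 in KO cells (131.5 with IL-4, against 104.8 unstimulated) and by 0.86 in WT cells (134 with IL-4, against 103.6 unstimulated). The unstimulated Myc values lie close to the background threshold, so the size of these changes depends on the background correction. Eif4ebp1, which encodes the mTOR-controlled repressor of cap-dependent translation, fell by 0.53 in KO cells and by 0.75 in WT cells. Castor1, an arginine sensor upstream of mTOR, fell by 0.47 in KO cells and 0.81 in WT cells. Sesn1, a leucine sensor and inhibitor of mTOR, fell by 0.52 in KO cells with IL-4 and was higher in unstimulated KO cells than in unstimulated WT cells (705 against 463, adjusted p = 0.00393, limma). Rragc, the remaining gene of the 4 and named beyond the limit of 4 per list, fell by 0.31 in KO cells with IL-4 (adjusted p = 0.023, limma). It was higher in unstimulated KO cells than in unstimulated WT cells (2293 against 1826, adjusted p = 0.0397, limma).

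Of 70 tested genes for mitochondrial ribosomal proteins, which serve the separate ribosome of that organelle, 17 rose and 1 fell in KO cells with IL-4, and 8 rose and 3 fell in WT cells with IL-4, with median changes of 0.20 in KO cells and 0.08 in WT cells (log2). This list was added after the data had been seen. Mrpl12, a large-subunit gene, rose by 0.67 in KO cells and by 0.42 in WT cells, and Mrps5, a small-subunit gene, by 0.63 in KO cells and 0.37 in WT cells. Mrpl33 fell by 0.49 in KO cells and by 0.71 in WT cells.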

How the data were processed

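Total RNA of 8 samples was labelled with biotin and hybridised to bead arrays. The authors deposited linear probe intensities; the submitters' processing notes list GenomeStudio, whose version and settings are not given in the sources used here. The sorted values of the 8 columns differ by at most 0.57 and none lies under 78.45, so the table was taken, from its values, as quantile-normalized without background subtraction. A non-normalized table was not used, because its 16 columns match no sample label. Of 25697 probes, 23978 have 1 gene symbol and 1719 none; 23962 matched RefSeq genes of GRCm38.p6.

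Intensities were corrected with normexp (saddle, offset 16) and taken to log2, so folds of dim genes depend on both steps. Background was set at the mode of the low values plus 1.645 SD of the values below it, and 54% to 54.7% of probes exceeded it. Probes that exceeded it in both duplicates of 1 or more groups were used, with the brightest per gene. The 4 group means were estimated from all 8 arrays by limma 3.58.1 (R 4.3.3; eBayes with a variance trend, 4 residual and 9.31 prior degrees of freedom), and calls were made at a p under 0.05 after Benjamini-Hochberg adjustment across 9840 genes. The script was tested on 20 simulated data sets with 200 changed genes each. It recovered 2.1% of changes of 0.3 (log2), 26.9% of changes of 0.5 and 92.1% of changes of 1, and 3.83% of its calls were false. The spread and the number of changed genes were set beforehand, so these shares are only a guide. A gene that did not pass here may still have changed by such small sizes. Members, lists and tests were chosen with earlier results of these data known. Named genes were up to 6 largest calls per comparison and direction, the 3 largest changes where fewer than 3 passed, the paralogs with their parent genes, the stalk genes, the 3 brightest and 3 dimmest, and up to 4 genes per list; others are marked where they appear. Figures were drawn with matplotlib 3.10.9. The deviations of same-numbered samples from their group means correlated at 0.23 between the KO groups and 0.15 between the WT groups. Across genotypes the correlations were -0.09 to 0.01. The sources used here do not say whether the numbers tie cultures within a genotype, so numbers were not taken to pair samples. A fit paired within each genotype was not run. Precision is limited by the 2 arrays in each group.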

Additional observations from a re-analysis of the deposited data

How the results depend on the processing

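Alternatives were no background correction, an offset of 50, cyclic loess, centring on 500 bright genes or on reference genes (4 of 8 listed were tested), 2 other filters, the mean of a gene's probes, robust or trend-free eBayes, the replicate number as a block, each array left out, and, chosen after seeing the data, counting only genes above background on all 8 arrays. No direction reversed among the counts and named changes recomputed, but the median of the 61 genes for KO against WT with IL-4 turned to -0.06 with reference-gene centring. The count in KO cells with IL-4 was 10, 6 without a variance trend, and 4 to 9 with an array left out; that in WT cells was 2, and 0 to 3 with an array left out. KO against WT with IL-4 had 0, 1 with the replicate block (Rpl31) and 0 to 1 with an array left out. With the block the count was 12 in KO cells with IL-4 and 2 in WT cells. Without the trend, Rpl22, Rps13, Rpl36al and Rpl27 did not pass in KO cells (adjusted p = 0.0616, 0.1, 0.113 and 0.113, limma); with reference-gene centring, Rpl22 and Rps19bp1 did not (0.0504 and 0.0565); without a filter, Rps19bp1 did not (0.0566); and with probes averaged, Rpl27 did not (0.0524). The cause was not tested. Dim probes near background limit Rpl22l1, Rpl3l, Rpl6 and Rpsa and, among the listed genes of translation, Myc. The 6 untested genes have no level.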
